A study of Mus musculus with 57 samples.

Results

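Prefrontal cortex of mice heterozygous for Shank2 (HT) and exposed to fluoxetine was compared with prefrontal cortex of wild-type mice (WT) given vehicle, to ask which genes stood away from the untreated wild-type level after the drug. The members were chosen by their labels: 10 HT fluoxetine libraries (5 female, 5 male) and 8 WT vehicle libraries (4 female, 4 male), 18 of the 57 RNA-seq libraries of the series. All mice were C57BL/6N and were taken at postnatal day 25. Fluoxetine or vehicle had reached the pups in the milk of the mother from day 3 to day 24. The comparison therefore joins a genotype and a drug, so 10 HT vehicle and 10 WT fluoxetine libraries are given beside it. The remaining groups received lithium and are not compared here. Their libraries entered the estimate of the spread, the minimum mean of a gene and most alternative settings. They also entered the means about which levels of gene lists and trends with transcript length are taken. The labels give no dose, no litter, and no description of the Shank2 allele beyond heterozygous. Since the drug came through the mother, littermates may have more in common than their treatment, and the p-values speak only of the spread among these libraries.

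SHANK2 is a scaffold protein of the postsynaptic density, where SHANK proteins tie glutamate receptors to the actin skeleton through partners such as cortactin. Mutations of the gene are known in autism and intellectual disability. Fluoxetine blocks the serotonin transporter, and serotonin acts on the maturing cortex in the first weeks after birth. Cytosolic ribosomal proteins and the subunits of the respiratory chain are short, abundant transcripts whose levels are known to move together in many tissues.

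Values are the authors' normalized counts per gene. Differences are log2 differences of value + 1 from limma, averaged over the female and the male difference, ± the standard error of the fit. They are given as HT fluoxetine minus WT vehicle unless another pair is named. A gene passed at a Benjamini-Hochberg adjusted p under 0.05 over the 16659 genes with a mean of at least 10. At the edge of that minimum, Gnrh1 had a mean of 10.03 over all libraries and was kept, and Tmc3 had 9.997 and was not.

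Of 16659 genes, 1083 passed (6.5%), 493 higher (2.96%) and 590 lower (3.54%) in HT fluoxetine. Most of these changes were small, with a median size of 0.24, and the median over all genes was 0.00. Libraries of the groups did not overlap for 34 genes (0.204%), 7 higher (0.042%) and 27 lower (0.162%) in HT fluoxetine. The count of calls depended on single libraries: it was 463 (2.78%) without WT vehicle male 2, with 185 higher (1.11%) and 278 lower (1.67%), 608 without WT vehicle female 3 and 1700 without WT vehicle male 1. When the fit held only the 4 groups compared, 62 genes passed, 12 higher and 50 lower, all of them among the 1083. With each library's trend of expression with transcript length as a term, 193 passed (1.16%), 66 higher (0.396%) and 127 lower (0.762%), and 161 of them were among the 1083.

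**Figure D1:**
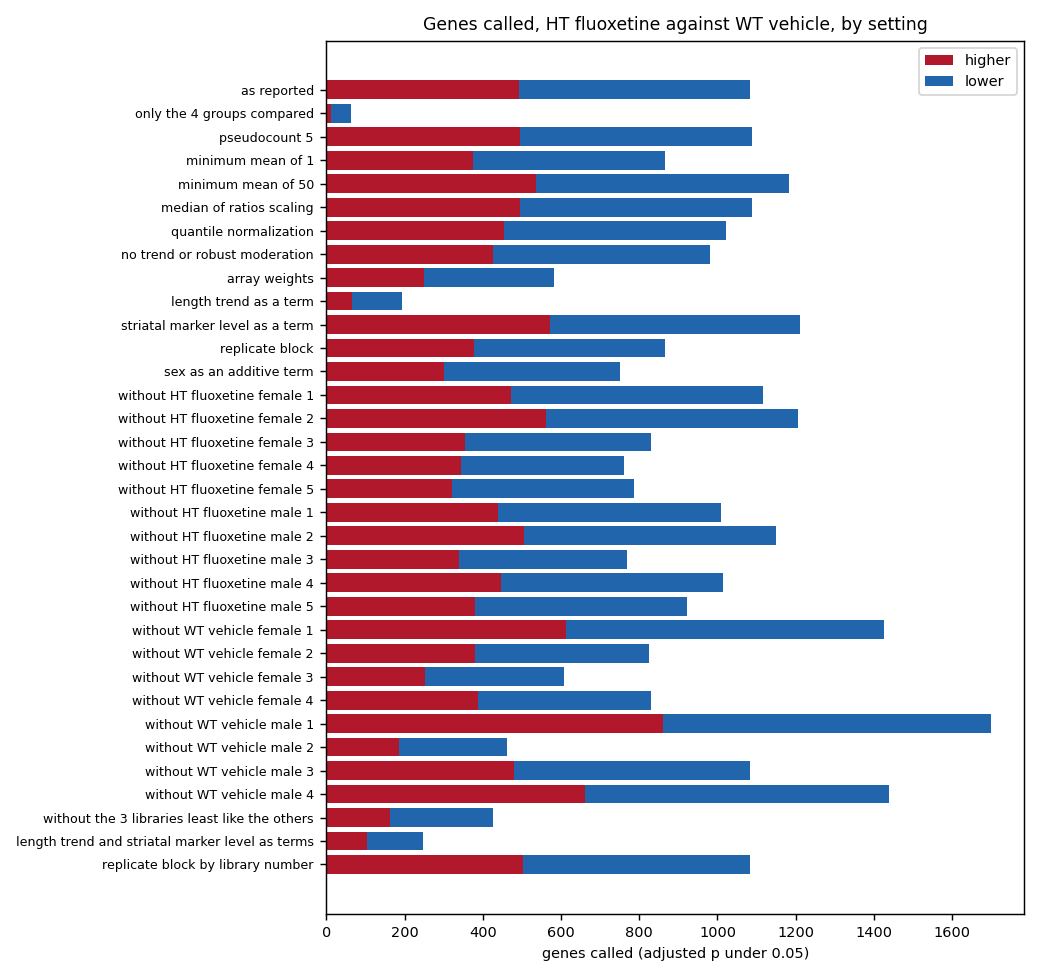
Number of genes passing (horizontal axis, adjusted p under 0.05) in the comparison of HT fluoxetine with WT vehicle, higher in red and lower in blue, as reported (1083) and under each other setting or with the library named on the vertical axis left out. The count runs from 62 with only the 4 groups compared to 1700 without WT vehicle male 1.

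A core of 50 genes passed with each of the 18 libraries left out in turn and in each of the 12 other planned settings in which they were tested. Of these, 10 were higher and 40 lower, and 21 had groups that did not overlap. The higher ones included Gm26793, Cfap46, Ntsr1, Lrrc27, Slc44a5, Hrk, Ahdc1, Gse1 and Sez6l. The lower ones included Shank2, Bc1 and Ccnd1, 11 cytosolic ribosomal protein genes and 5 nuclear genes of oxidative phosphorylation. The differences of HT vehicle from WT vehicle beside them share the WT vehicle libraries, so the pair cannot be read as independent.

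**Figure D2:**
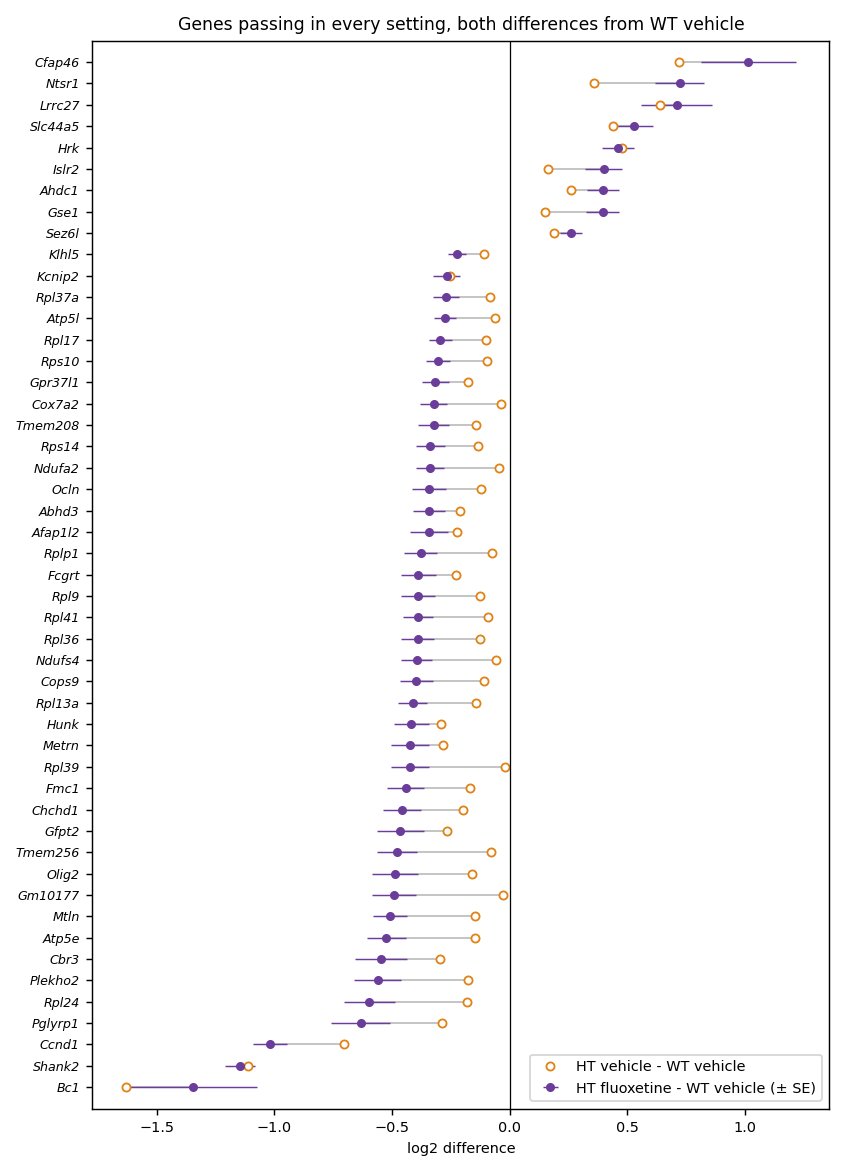
Log2 differences from WT vehicle (horizontal axis) for 49 of the 50 genes that passed in every setting in which they were tested: HT fluoxetine in filled purple with its standard error, HT vehicle in open orange. Gm26793, at 4.51 and 4.60, is off the scale. Shank2, Hrk and Kcnip2 have both points close together, while for most ribosomal and respiratory genes HT vehicle lies nearer to zero than HT fluoxetine.

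The 18 libraries had totals of 30.4 to 32.6 M (mega) normalized counts and 21509 to 23126 genes above zero. All 12 genes of a list of neocortical identity were measured, and so were 28 of 29 cortical layer markers. Striatal projection neuron markers, which a dissection of frontal cortex can carry in, stood high in WT vehicle female 3 and 4 and male 1 and in HT fluoxetine female 3 and 5 and male 1. Their mean level ran from -0.74 to 2.34 in WT vehicle and from -0.76 to 1.67 in HT fluoxetine about the gene means (log2). Of these markers 0 of 19 passed, but with high and low libraries in both groups that count cannot show equal striatal content. In HT vehicle the level ran from -0.73 to -0.40, with a median difference of -0.68 from WT vehicle. HT fluoxetine minus HT vehicle had a median of 0.50. WT fluoxetine females 1 to 4 stood at 0.84 or more, female 5 at -0.67 and the males at -0.70 to -0.40. The part of striatal tissue in differences that involve HT vehicle or WT fluoxetine was not tested. Of markers of other tissue nearby, none passed among 18 of the olfactory bulb and migrating neuroblasts, 9 of choroid plexus and ependyma and 3 of the hypothalamus, and 1 of 14 of thalamus and habenula did, Chrnb3. Each library's median correlation with the others was 0.968 to 0.986. WT vehicle male 2, HT fluoxetine male 3 and WT vehicle female 1 stood farthest apart. Of 132 called genes followed one by one, 54 did not pass without the first of these, 26 without the second and 13 without the third, and 65 lost the call when at least 1 of the 18 libraries was left out.

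Shank2 (chr7:144001928-144424494, GRCm38), the gene carried on 1 intact allele by design, ran from 3877 to 4814 with a median of 4293 in HT fluoxetine and from 6762 to 11064 with a median of 9990.5 in WT vehicle. No HT library reached the lowest WT library. The difference was -1.15 ± 0.06 (adjusted p = 9.86e-20), and HT vehicle differed from WT vehicle by -1.11. HT fluoxetine and HT vehicle were -0.03 apart (0.06 SE, adjusted p = 0.851). The other members of the family did not pass. Shank1, a postsynaptic scaffold like Shank2, had 0.18 ± 0.08 (adjusted p = 0.199), and Shank3 had -0.04 ± 0.06 (adjusted p = 0.716) with a sign that turned, to 0.00139, with the length trend as a term.

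Genes beside Shank2 on chromosome 7 differed as well. Within 1 Mb of Shank2, 27 genes were tested and 8 passed, Shank2 among them (29.6%, beside 7.05% on the whole of chromosome 7 and 6.45% on all other chromosomes), and 4 of the 8 passed in every setting. Ccnd1 (chr7:144929931-144939925), which encodes cyclin D1, a driver of the step from G1 to S phase, ran from 684 to 1095 with a median of 890.5 in HT fluoxetine and from 1409 to 2102 with a median of 1905 in WT vehicle. The groups did not overlap, and the difference was -1.02 ± 0.07 (adjusted p = 2.76e-15). Ccnd1 was the neighbour in which HT fluoxetine also fell below HT vehicle: HT vehicle ran from 1062 to 1294 with a median of 1135 and differed from WT vehicle by -0.70, and HT fluoxetine differed from HT vehicle by -0.31 ± 0.07 (adjusted p = 0.0253). In WT, fluoxetine and vehicle were -0.13 apart (adjusted p = 0.384). None of the other 17 cyclins and cyclin-dependent kinases tested passed.

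Bc1 (chr7:144914470-144914637) is a short untranslated RNA that is carried into dendrites and represses translation there. It lies between Shank2 and Ccnd1 and its sequence is shown because it is the neighbour with a known role at synapses. The capitals mark its longest run of A, 23 bases at positions 77 to 99 counted from 1 at the 5′ end.
Bc1 (GRCm38, plus strand): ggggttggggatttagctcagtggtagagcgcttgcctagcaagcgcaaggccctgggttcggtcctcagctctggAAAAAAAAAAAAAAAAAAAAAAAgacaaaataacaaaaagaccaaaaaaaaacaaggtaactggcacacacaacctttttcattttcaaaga
Bc1 ran from 1249 to 4498 with a median of 2109 in HT fluoxetine and from 3437 to 12067 with a median of 5161 in WT vehicle, with some overlap, and the difference was -1.34 ± 0.27 (adjusted p = 0.00226). HT vehicle, at 582 to 4669 with a median of 1959, differed from WT vehicle by -1.63, and the drug made no difference that passed in HT (0.29, adjusted p = 0.651). The libraries were prepared with a poly(A) mRNA kit, and how completely it captured Bc1 was not tested.

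Gm26793 (chr7:144894560-144897461), a predicted transcript, was nearly absent in WT and present in every HT library. It ran from 0 to 6.66 with a median of 2.9 in WT vehicle and from 46.8 to 100.2 with a median of 66.3 in HT fluoxetine. Its log2 difference of 4.51 ± 0.32 (adjusted p = 2.76e-15) depends on the pseudocount, since some WT libraries were at 0. HT vehicle, at 58.5 to 95.9 with a median of 66.9, lay in the same range as HT fluoxetine. The transcript overlaps Fgf15 on the opposite strand and LTO1 overlaps Ccnd1, and reads of each pair may not be separable, since whether the counting used strand is not stated in the sources used here.

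Of the other 23 neighbours tested, 4 passed, all higher, and 19 did not pass. Cttn (chr7:144435733-144471009), next to Shank2, encodes cortactin, which binds actin and SHANK proteins. It ran from 3587 to 4963 with a median of 3877 in HT fluoxetine and from 3275 to 3832 with a median of 3635 in WT vehicle. The difference was 0.15 ± 0.04 (adjusted p = 0.0119). Without the 3 libraries least like the others Cttn did not pass (adjusted p = 0.082). LTO1 differed by 0.34 (adjusted p = 0.0321), the receptor gene Mrgpre by 0.22 (adjusted p = 0.0282) and Mrgprf by 0.49 (adjusted p = 0.0421). These 3 calls were lost without WT vehicle male 2, at adjusted p of 0.0623, 0.056 and 0.114. Farther along chromosome 7, Lrrc27 (chr7:139212988-139242979) ran from 159 to 329 with a median of 200.2 in HT fluoxetine and from 96.3 to 172 with a median of 117 in WT vehicle. It differed by 0.71 ± 0.15 (adjusted p = 0.00354), with HT vehicle at 0.64 from WT vehicle. Cfap46 (chr7:139600951-139683817), a gene of the cilium axoneme, ran from 96.2 to 176 with a median of 139.8 and from 26.2 to 123 with a median of 74.4 in the same order of groups. Its difference was 1.02 ± 0.20 (adjusted p = 0.00182).

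**Figure D3:**
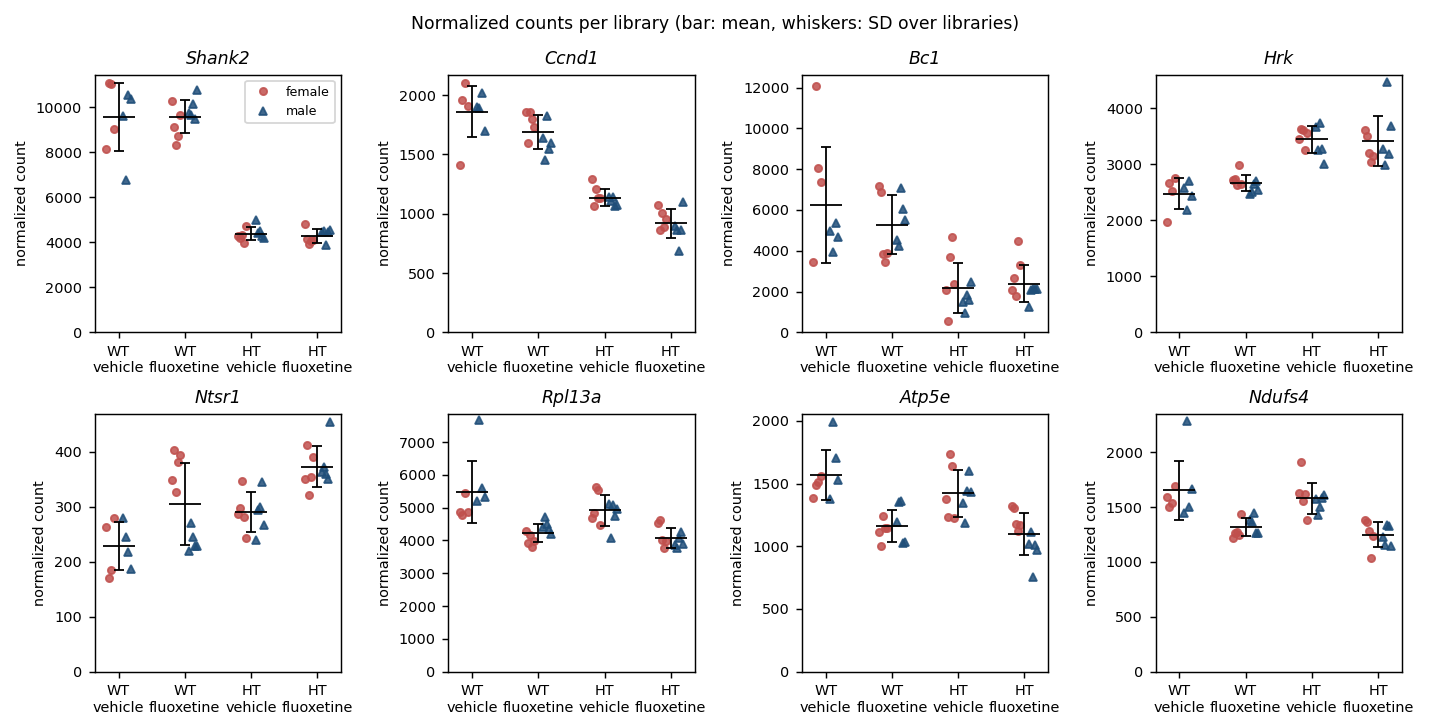
Normalized counts (vertical axis, from 0) of 8 genes in each library of the 4 groups of genotype and drug, females as red circles and males as blue triangles, with the mean as a bar and the SD as whiskers. Shank2 and Ccnd1 lie lower in HT than in WT, Bc1 is lower with overlap, Hrk lies higher, Ntsr1 stands highest in HT fluoxetine, and Rpl13a, Atp5e and Ndufs4 are lower in the fluoxetine groups than in the vehicle groups.

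Beyond chromosome 7, Hrk and Slc44a5 stood away from WT vehicle by about as much in HT fluoxetine as in HT vehicle. Hrk, which encodes a pro-apoptotic BH3-only protein of neurons, ran from 2993 to 4479 with a median of 3246 in HT fluoxetine and from 1970.0 to 2752 with a median of 2553 in WT vehicle, and the groups did not overlap. The difference was 0.46 ± 0.07 (adjusted p = 3.99e-05), HT vehicle differed from WT vehicle by 0.48, and HT fluoxetine from HT vehicle by -0.02 (adjusted p = 0.933). None of the other 14 genes of the BCL2 family passed. Slc44a5, a choline transporter-like gene, ran from 489 to 716 with a median of 544 in HT fluoxetine, above all WT vehicle libraries at 298 to 446 with a median of 402. Its difference was 0.53 ± 0.08 (adjusted p = 5.85e-05), beside 0.44 in HT vehicle.

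Esr1, the gene of estrogen receptor alpha, ran from 188 to 283 with a median of 244 in HT fluoxetine and from 145 to 202 with a median of 164 in WT vehicle, and the ranges overlapped little. The difference was 0.49 ± 0.11 (adjusted p = 0.00696), beside 0.64 in HT vehicle. Without the 3 libraries least like the others Esr1 did not pass (adjusted p = 0.0572). Of the other 9 steroid receptor genes, the mineralocorticoid receptor gene Nr3c2 rose by 0.19 (adjusted p = 0.0353) and Esrra fell by 0.20, and neither passed with the length trend as a term or without WT vehicle male 2. Tph2, which encodes the rate-limiting enzyme of serotonin synthesis in neurons, was low everywhere, at 10.7 to 23.5 with a median of 14.8 in HT fluoxetine and at 21.1 to 33.1 with a median of 24.8 in WT vehicle. It fell by 0.70 (adjusted p = 0.00799), and HT vehicle lay -0.65 from WT vehicle. None of the other 16 genes of the serotonin system tested, which include the transporter, the receptors and the degrading enzymes, passed. Chrnb3, a nicotinic receptor subunit, differed by -0.65 (adjusted p = 0.0441), beside -1.03 in HT vehicle, and did not pass without WT vehicle male 2 (adjusted p = 0.108). Hunk, a kinase gene, ran from 434 to 602 with a median of 505 in HT fluoxetine and from 538 to 871 with a median of 658 in WT vehicle. It differed by -0.42 ± 0.08 (adjusted p = 0.000594), with -0.29 in HT vehicle.

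Other genes had a larger difference from WT vehicle in HT fluoxetine than in HT vehicle. Ntsr1, which encodes the high-affinity neurotensin receptor and marks corticothalamic neurons of layer 6, ran from 321 to 455 with a median of 362 in HT fluoxetine and from 171 to 279.9 with a median of 231 in WT vehicle. Every HT fluoxetine library lay above every WT vehicle library, with HT vehicle between them at 239 to 347 with a median of 291. The difference was 0.72 ± 0.11 (adjusted p = 2.93e-05). HT vehicle differed from WT vehicle by 0.36 (adjusted p = 0.0834), WT fluoxetine from WT vehicle by 0.40 (adjusted p = 0.0491) and HT fluoxetine from HT vehicle by 0.36 (adjusted p = 0.0729). In WT fluoxetine the females stood at 327 to 403.5, above every WT vehicle library. The males stood at 221 to 271, within the range of WT vehicle, a difference between the sexes that was not tested. Females 1 to 4 of WT fluoxetine also stood high in striatal markers, while female 5 and the males did not. The drug difference in HT minus that in WT was -0.03 (adjusted p = 0.979). The other layer markers did not move as 1 group. Cdh13 and Grp were higher, by 0.30 and 0.36, calls that ended when any 1 of 13 libraries (Cdh13) or of 11 libraries (Grp) was left out. Pcp4, a calmodulin-binding gene of deep layers, was lower by 0.33 (adjusted p = 0.00885), while 24 of 28 did not pass. Neurod2 and Mef2c, transcription factor genes of cortical excitatory neurons, rose by 0.31 (adjusted p = 0.0148) and 0.25 (adjusted p = 0.0167), 2 of 12 genes of neocortical identity. Mef2c did not pass without WT vehicle male 2 (adjusted p = 0.0666), and neither gene without the 3 libraries least like the others.

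Genes of several large nuclear and surface proteins had medians in the order WT vehicle, HT vehicle, HT fluoxetine. Ahdc1, which encodes an AT-hook DNA-binding protein, ran from 2339.7 to 3222 with a median of 2767 in HT fluoxetine and from 1491 to 2370.3 with a median of 2184 in WT vehicle, with a narrow overlap. It differed by 0.40 ± 0.07 (adjusted p = 0.000262), beside 0.26 in HT vehicle and 0.26 in WT fluoxetine. Gse1, a gene of a chromatin complex protein, ran from 2806 to 3801 with a median of 3256 and from 1926 to 3066 with a median of 2554 in the same order of groups. It differed by 0.40 ± 0.07 (adjusted p = 0.00056), beside 0.15 and 0.25. Sez6l, a transmembrane protein gene of neurons, differed by 0.26 ± 0.05 (adjusted p = 0.000506) and ran from 8440.3 to 10015 with a median of 9464 in HT fluoxetine and from 6861 to 8527 with a median of 7975 in WT vehicle. Foxk1, a forkhead factor gene, had groups that did not overlap, 2889 to 3472 with a median of 3166 against 1826 to 2865 with a median of 2672, and differed by 0.28 ± 0.05 (adjusted p = 0.00056). Celsr2, an adhesion receptor gene of planar cell polarity, differed by 0.28 (adjusted p = 0.000697).

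Genes of the cytosolic ribosome were lower in HT fluoxetine. Of 76 tested, 47 fell and none rose (61.8%, beside 6.5% of all genes), and the median was -0.23 beside 0.00 for all genes. The members that passed lay between -0.60 and -0.14. The median was -0.09 for HT vehicle minus WT vehicle, -0.13 for HT fluoxetine minus HT vehicle and -0.18 for WT fluoxetine minus WT vehicle, differences that share libraries. The mean level of the list ran from -0.15 to 0.07 in HT fluoxetine with a median of -0.07, and from 0.02 to 0.59 in WT vehicle with a median of 0.13 (log2 about the gene means). The highest value was that of WT vehicle male 2. Without that library 29 fell and the median was -0.17, and with the length trend as a term 16 fell and the median was -0.11. In each of these fits none rose.

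Rpl13a, a protein of the large subunit, ran from 3776 to 4613 with a median of 3996 in HT fluoxetine and from 4773 to 7665 with a median of 5268 in WT vehicle. The groups did not overlap. The difference was -0.41 ± 0.06 (adjusted p = 3.63e-05), and -0.35 without WT vehicle male 2. HT vehicle, at 4085 to 5627 with a median of 4907, lay -0.14 from WT vehicle (adjusted p = 0.245). HT fluoxetine fell below HT vehicle by 0.27 (adjusted p = 0.0203) and WT fluoxetine below WT vehicle by 0.36 (adjusted p = 0.00288). Rpl41, which encodes a very short peptide of the large subunit, ran from 4245 to 5917 with a median of 4760.3 and from 5641 to 8113 with a median of 6278 in the same order of groups. It differed by -0.39 ± 0.06 (adjusted p = 0.000241), beside -0.09 in HT vehicle. Rps10, of the small subunit, ran from 2016 to 2582 with a median of 2280.1 and from 2564 to 3686 with a median of 2709, and differed by -0.31 ± 0.05 (adjusted p = 0.000262). Rpl17 had groups that did not overlap, 3374 to 3852 with a median of 3632 against 4176 to 5633 with a median of 4308, and differed by -0.29 ± 0.05 (adjusted p = 0.000168). Ribosomal protein genes have many processed pseudogenes, and the sources used here do not say how reads were shared among such copies.

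Promoters are shown for 3 of these genes because the members moved together. Each runs from 100 bases before to 30 after the annotated start (RefSeq, GRCm38.p6, minus strand, 5′ to 3′), and capitals mark a match to CCGGAAG, the core of the sites bound by ETS factors such as GABPA.
Rpl13a (chr7:45128716-45128845): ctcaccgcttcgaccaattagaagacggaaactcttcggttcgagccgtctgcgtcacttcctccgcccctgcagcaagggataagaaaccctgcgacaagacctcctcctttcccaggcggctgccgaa
Rpl41 (chr10:128549139-128549268): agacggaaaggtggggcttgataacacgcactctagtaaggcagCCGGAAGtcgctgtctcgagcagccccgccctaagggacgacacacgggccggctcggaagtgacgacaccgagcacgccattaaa
Rps10 (chr17:27635215-27635344): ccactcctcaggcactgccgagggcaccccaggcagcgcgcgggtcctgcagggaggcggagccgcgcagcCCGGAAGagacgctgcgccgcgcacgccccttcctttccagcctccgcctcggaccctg
In windows of 250 bases before to 50 after the start, read on both strands, CCGGAAG lay in 22 of 56 ribosomal protein genes with a promoter in the table (39.3%), and in 12 of the 33 of these that fell (36.4%). It lay in 16.2% of the tested genes with a promoter and in 9.12% of all 27025 promoters. AAGATGGC, the core of YY1 sites, lay in 7.14% of the ribosomal genes, 12.5% of the nuclear genes of oxidative phosphorylation and 4.24% of tested genes. GCGCATGC, the core of NRF1 sites, lay in 3.57%, 15.6% and 5.02% of the same sets. The last letters of CCGGAAG are the first of AAGATGGC, so a promoter can hold both in overlap.

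Nuclear genes of oxidative phosphorylation were lower too. Of 81 tested, 42 fell and none rose (51.9%), with a median of -0.21, and the members that passed lay between -0.52 and -0.12. The median was -0.07 for HT vehicle minus WT vehicle, -0.11 for HT fluoxetine minus HT vehicle and -0.14 for WT fluoxetine minus WT vehicle. The mean level of the list ran from -0.25 to 0.03 in HT fluoxetine and from -0.09 to 0.57 in WT vehicle. WT vehicle male 2 was again the highest. Without it 22 fell (median -0.14), and with the length trend as a term 12 fell (median -0.10).

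Atp5e, a small subunit of the ATP synthase rotor, ran from 754 to 1325 with a median of 1119 in HT fluoxetine and from 1380.5 to 1994 with a median of 1522 in WT vehicle. The groups did not overlap, and the difference was -0.52 ± 0.08 (adjusted p = 0.000145). It lay -0.15 from WT vehicle in HT vehicle (adjusted p = 0.422), and fell by 0.38 with fluoxetine in HT and by 0.43 in WT. Ndufs4, an accessory subunit of complex I whose loss causes Leigh syndrome, ran from 1035 to 1381 with a median of 1262 and from 1442 to 2287 with a median of 1566 in the same order of groups. These did not overlap either, and the difference was -0.39 ± 0.07 (adjusted p = 0.000262), with -0.06 in HT vehicle. Ndufb2, also of complex I, differed by -0.41 (adjusted p = 0.000241), and Atp5l, of the ATP synthase, by -0.27 (adjusted p = 0.000286). Mtln, which encodes mitoregulin, a micropeptide of the inner mitochondrial membrane, ran from 217 to 311 with a median of 282 in HT fluoxetine, below every WT vehicle library at 349 to 424 with a median of 388. Its difference of -0.51 ± 0.07 (adjusted p = 2.93e-05) was hardly altered without WT vehicle male 2, at -0.52.

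Other lists of abundant transcripts had smaller shares of falls. Over all genes 3.54% fell and 6.5% passed in either direction. Of 78 mitochondrial ribosomal protein genes, 6 fell (7.69%, median -0.12), Mrpl53 among them with -0.34 (adjusted p = 0.00246). Of 20 genes of small nuclear ribonucleoproteins, 4 fell (20%), Snrpg by 0.41 (adjusted p = 0.00901), and of 37 proteasome genes 2 fell (5.41%). The mitochondrial ribosomal and proteasome shares lay near the 6.5% that passed in either direction and above the 3.54% that fell. Snrpg did not pass without the 3 libraries least like the others. With the length trend as a term none of these 3 lists had a call. Of the 13 protein genes of the mitochondrial genome, mt-Co1, mt-Cytb, mt-Nd4 and mt-Nd2 fell by 0.25 to 0.27, and under quantile normalization the sign turned for mt-Cytb (0.00532) and mt-Nd4 (0.00088). That scaling gives genes of the same rank the same value in every library, and these genes stood between rank 2 and 6 in all 57 libraries, so it leaves them little room to differ. The median of the 13 genes was -0.27 and 12 were negative, but 1 of the 13 passed without WT vehicle male 2 and none with the length trend as a term. mt-Co1 ran from 485954 to 686612 with a median of 552645 in HT fluoxetine and from 517344 to 801840.0 with a median of 681390.4 in WT vehicle, with much overlap.

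The trend of expression with transcript length moved with these lists. The trend is a rank correlation with transcript length, taken across the tested genes that lie outside all 38 lists. What is correlated is each gene's log2 level in a library minus its mean over the other libraries. The trend was above zero in 7 of 10 HT fluoxetine and 1 of 8 WT vehicle libraries. Its mean was 0.016 ± 0.079 (SD, n = 10) in HT fluoxetine and -0.072 ± 0.111 (SD, n = 8) in WT vehicle, a difference of 0.0885 (two-sided exact permutation test over 43758 splits, p = 0.0595). WT vehicle male 2 stood at -0.309, and without it the WT vehicle mean was -0.039. Ribosomal members had a median transcript length of 630.2 bases and respiratory members of 608, beside 1560 over all genes tested. How much of the falls in short transcripts belongs to this trend cannot be told apart from an effect of group on those genes.

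**Figure D4:**
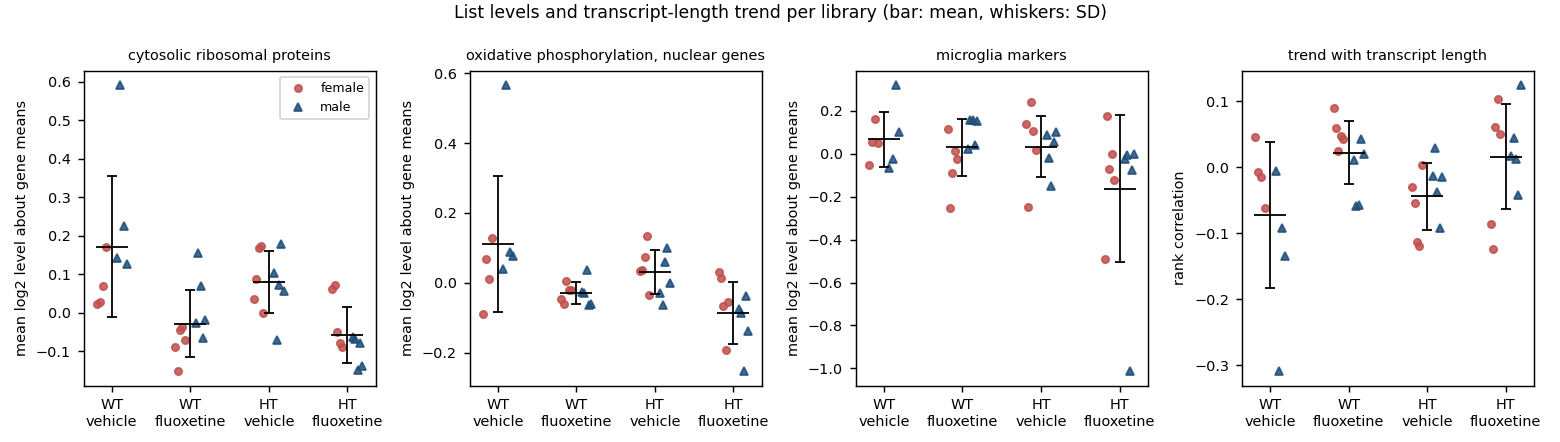
Mean level of 3 gene lists in each library (vertical axis, log2 about the gene means over all libraries) and, at the right, each library's rank correlation of level with transcript length, for the 4 groups of genotype and drug (bar: mean, whiskers: SD, females red circles, males blue triangles). The ribosomal and respiratory lists lie lower in both fluoxetine groups, and WT vehicle male 2 is the highest point of both and the lowest of the length trend, at -0.309.

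Synaptic and channel genes, most of them long, were among the higher genes. Among the 58 postsynaptic genes of glutamate synapses, 9 rose and 1, Arc, fell (17.2%, beside 6.5% of all genes). Of 44 voltage-gated channel genes 6 rose and none fell. Of 59 autism risk genes 12 rose and none fell. Of 56 clustered protocadherins 6 rose and none fell. Medians over these lists were 0.09, 0.09, 0.12 and 0.15. Their calls depended on WT vehicle male 2, without which 2, 2, 3 and 3 members rose in that order. With the length trend as a term 0, 1, 1 and 1 rose.

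Gria1, the GluA1 subunit of AMPA receptors, ran from 13076 to 17549 with a median of 13636 in HT fluoxetine and from 11238 to 14121 with a median of 11732 in WT vehicle. It differed by 0.19 ± 0.05 (adjusted p = 0.0104), and by 0.17 without WT vehicle male 2 (adjusted p = 0.0364). Shisa7, an auxiliary protein of GABA-A and AMPA receptors, ran from 7734 to 9723 with a median of 8589 and from 4774 to 7964 with a median of 7506 in the same order of groups, and differed by 0.25 ± 0.05 (adjusted p = 0.00368). It lay 0.11 from WT vehicle in HT vehicle (adjusted p = 0.294). Grm5, the metabotropic receptor mGluR5 that is linked to SHANK through Homer, ran from 6275 to 7729 with a median of 7116 and from 3342 to 6984 with a median of 6035. It differed by 0.28 ± 0.07 (adjusted p = 0.0116) and by 0.29 in HT vehicle, but did not pass without WT vehicle male 2 (adjusted p = 0.059), its lowest library.

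Among channels, Cacna1b, the pore of N-type calcium channels, ran from 5547 to 7920.5 with a median of 6502 in HT fluoxetine and from 2897 to 5759.9 with a median of 5442 in WT vehicle. It differed by 0.36 ± 0.08 (adjusted p = 0.00259), and by 0.25 without WT vehicle male 2. The sodium channel genes Scn2a and Scn8a rose by 0.30 (adjusted p = 0.0147) and 0.25 (adjusted p = 0.0128), and neither passed without that library (adjusted p = 0.0778 and 0.0719). Of 40 genes of the presynaptic vesicle cycle 3 rose and none fell (7.5%). Over all genes 2.96% rose and 6.5% passed in either direction. With the length trend as a term 1 of the 40 rose. Nrxn3, a presynaptic adhesion gene, rose by 0.25 (adjusted p = 0.0272) and did not pass without WT vehicle male 2 (adjusted p = 0.131).

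Among autism risk genes, Auts2, a regulator of Polycomb complexes and neurite growth, ran from 2327 to 3333 with a median of 2811 in HT fluoxetine and from 1579.8 to 2882 with a median of 2254 in WT vehicle. It differed by 0.33 ± 0.07 (adjusted p = 0.00227), with 0.07 in HT vehicle (adjusted p = 0.675) and a difference of 0.26 between HT fluoxetine and HT vehicle (adjusted p = 0.047). Nexmif, an X-linked gene of neurite extension, differed by 0.31 ± 0.06 (adjusted p = 0.00249), beside 0.28 in HT vehicle. Med13l, of the Mediator kinase module, rose by 0.21 (adjusted p = 0.0142), and had an adjusted p of 0.0503 without WT vehicle male 2. Pcdha1, a protocadherin whose last exons are shared by the whole alpha cluster so that reads may be divided among its members, rose by 0.49 (adjusted p = 0.00665), and HT vehicle differed by 0.49.

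Few immediate early genes passed, and a larger share of stress genes did. Arc, an immediate early gene that removes AMPA receptors from synapses, ran from 1171 to 5523 with a median of 2119 in HT fluoxetine and from 3951 to 7244 with a median of 5903 in WT vehicle, with wide overlap and a wide spread in HT fluoxetine. The difference was -1.004 ± 0.25 (adjusted p = 0.0125), beside -0.65 in HT vehicle (adjusted p = 0.204) and -0.70 in WT fluoxetine (adjusted p = 0.157). WT fluoxetine females stood at 4962 to 6956, within the range of WT vehicle. The males stood at 1460 to 3357, below every WT vehicle library. That difference between the sexes was not tested. Females 1 to 4 of WT fluoxetine also stood high in striatal markers, while female 5 and the males did not. Nr4a1, an immediate early gene of an orphan nuclear receptor, fell by 0.59 (adjusted p = 0.0395) and did not pass without WT vehicle male 2 (adjusted p = 0.0794). Of 20 immediate early genes these 2 passed (10%), and the median of the list was -0.29. With the length trend as a term 7 fell, while without the 3 libraries least like the others none fell and 1 rose.

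Of 25 genes of the unfolded protein and heat shock responses 6 fell and none rose (24%), with a median of -0.20. Hspa5, the chaperone BiP of the endoplasmic reticulum, ran from 4783 to 8675 with a median of 7420.4 in HT fluoxetine and from 5991 to 12889 with a median of 9299 in WT vehicle. It differed by -0.45 ± 0.12 (adjusted p = 0.0229), with -0.04 in HT vehicle and -0.41 in WT fluoxetine (adjusted p = 0.0933). Its co-chaperone gene Sdf2l1 fell by 0.73 (adjusted p = 0.011), Manf, a secreted factor of the same response, by 0.46 (adjusted p = 0.0147), and Hspb1, a small heat shock protein, by 0.69 (adjusted p = 0.00665). WT vehicle male 2 was the highest library of this list too. Without it 1 gene of the list fell, Hspb1 (adjusted p = 0.0266), and with the length trend as a term none did.

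**Figure D5:**
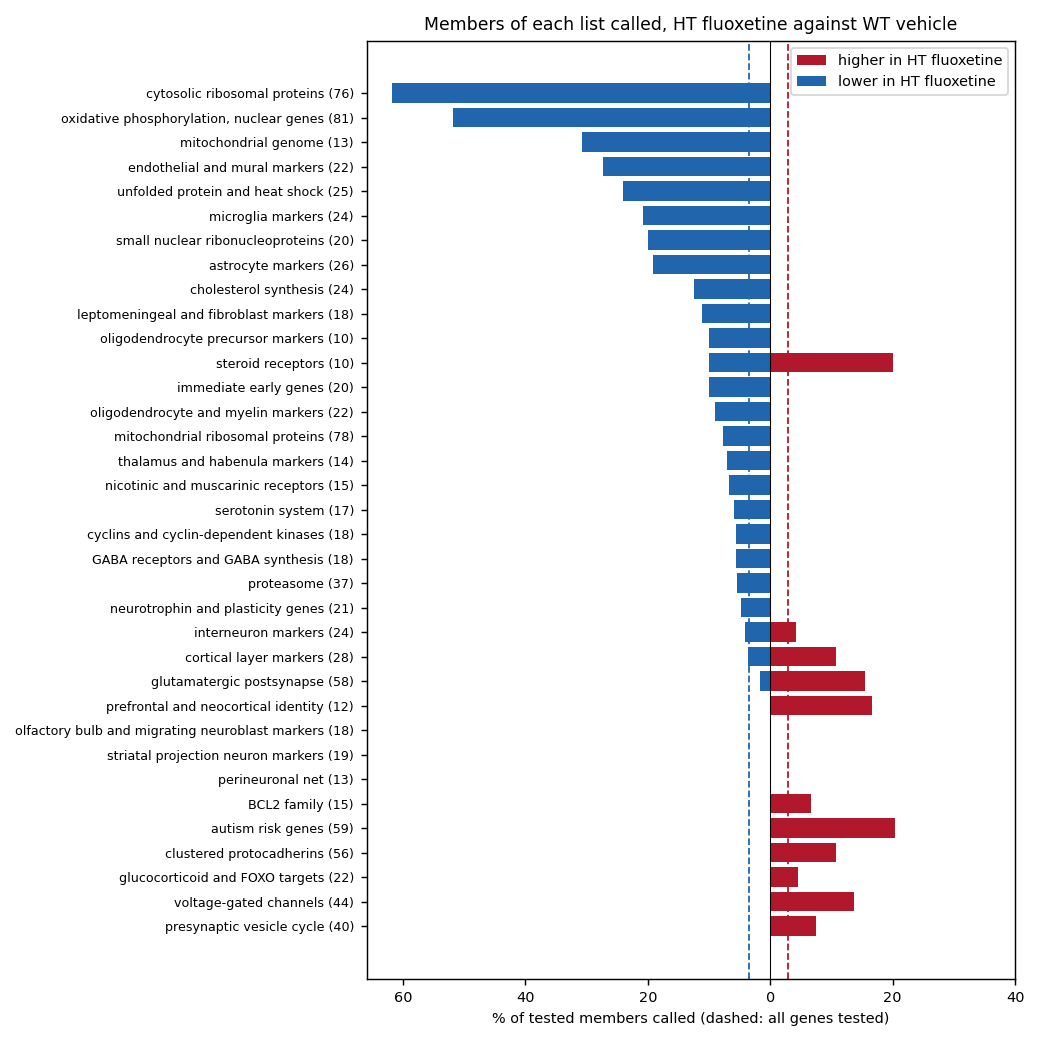
Share of tested members (horizontal axis, percent) that passed higher (red, right) or lower (blue, left) in HT fluoxetine against WT vehicle, for the lists with at least 10 tested members, whose number stands in brackets. Dashed lines mark the shares over all genes tested, 2.96% and 3.54%, and the ribosomal (61.8%) and respiratory (51.9%) lists reach farthest from them.

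Averaged over the sexes, markers of glia and vessels lay on the low side. In tissue RNA, fewer cells of a type and less RNA per cell cannot be told apart. Of 24 microglia markers 5 fell and none rose (20.8%, median -0.24). Their mean level ran from -1.01 to 0.17 in HT fluoxetine and from -0.06 to 0.32 in WT vehicle. The lowest value belonged to HT fluoxetine male 3, without which 3 fell and the median was -0.13. Aif1, which encodes IBA1, ran from 50 to 102 with a median of 82.4 in HT fluoxetine and from 87.2 to 137 with a median of 102 in WT vehicle and differed by -0.44 ± 0.10 (adjusted p = 0.00875). HT vehicle lay -0.06 from WT vehicle. Tyrobp, the adaptor of TREM2, fell by 0.37 (adjusted p = 0.01) and Gpr34 by 0.42 (adjusted p = 0.0274). Gpr34 did not pass without WT vehicle male 2 (adjusted p = 0.0597), without which 2 markers fell. Without the 3 libraries least like the others 1 marker fell, and Aif1 and Tyrobp did not pass (adjusted p = 0.0664 and 0.0603). With the length trend as a term no microglia marker passed.

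Of 26 astrocyte markers 5 fell and none rose (19.2%, median -0.13), with 4 falls without WT vehicle male 2 and 2 with the length trend as a term. Gpr37l1, an astrocyte receptor gene that passed in every setting, ran from 2751 to 4426 with a median of 3879 in HT fluoxetine and from 4275 to 5176 with a median of 4722 in WT vehicle. It differed by -0.31 ± 0.06 (adjusted p = 0.000942). S100b, a calcium-binding protein of astrocytes, differed by -0.32 ± 0.06 (adjusted p = 0.00195). Olig2, the transcription factor of the oligodendrocyte lineage, ran from 386 to 662 with a median of 579.8 in HT fluoxetine and from 575 to 1106 with a median of 759.7 in WT vehicle. It passed in every setting with -0.49 ± 0.10 (adjusted p = 0.00194), while 20 of 22 oligodendrocyte and myelin markers did not pass. The median over the 22 was -0.14, an average of opposite directions, with 0.29 in females and -0.57 in males. That difference between the sexes was not tested. The males held the highest WT vehicle library of the list, male 2 (0.63), and the lowest HT fluoxetine library, male 3 (-0.85). Without the 3 libraries least like the others the median was -0.04. Of 22 endothelial and mural markers 6 fell (27.3%, median -0.17), among them Abcb1a, the drug efflux pump of the blood-brain barrier, by 0.26 (adjusted p = 0.0147) and Ly6c1 by 0.35 (adjusted p = 0.0148). Without WT vehicle male 2 again 6 fell, without the 3 libraries least like the others 3, and with the length trend as a term 2. Neither Abcb1a nor Ly6c1 passed without WT vehicle female 3 (adjusted p = 0.0571 and 0.0557). Of 10 oligodendrocyte precursor markers 1 fell (10%, beside 3.54% of all genes). Of 18 leptomeningeal and fibroblast markers 2 fell (11.1%), Col3a1 by 0.62 (adjusted p = 0.0454). No leptomeningeal marker passed without HT fluoxetine male 3 or with the length trend as a term. HT fluoxetine male 3 was the lowest HT fluoxetine library in the microglia, astrocyte, oligodendrocyte, endothelial and fibroblast lists.

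Genes of red blood cells, which come from blood left in the tissue, were lower. The globin genes Hbb-bs, Hbb-bt, Hba-a1 and Hba-a2 differed by -0.83 to -1.09, and Hbb-bs ran from 853 to 3475 with a median of 2472 in HT fluoxetine and from 2807 to 7244 with a median of 4045 in WT vehicle. Each pair of alpha and of beta genes is nearly identical in sequence, so reads may be divided within a pair. WT fluoxetine stood as low, with -1.03 for Hbb-bs (adjusted p = 0.0166). Of the 6 red cell genes tested, the 4 globin genes passed and 2 did not, and the median was -0.85. The median was -0.64 for HT vehicle minus WT vehicle and -0.93 for WT fluoxetine minus WT vehicle. For HT fluoxetine minus HT vehicle it was -0.22, and these differences share libraries. Hba-a1 and Hba-a2 did not pass without WT vehicle male 2 (adjusted p = 0.0607 and 0.0704), and without the 3 libraries least like the others no red cell gene passed. The part of blood content in the falls of vessel and microglia markers was not tested.

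Interneuron genes showed few differences. Of 24 markers, Pvalb, the calcium-binding protein of fast-spiking cells, fell by 0.48 (adjusted p = 0.0132) and Nos1 rose by 0.38 (adjusted p = 0.0175). Pvalb ran from 219.7 to 444 with a median of 345 in HT fluoxetine and from 307 to 871 with a median of 434 in WT vehicle, and without WT vehicle male 2 the adjusted p was 0.0715 for Pvalb and 0.0874 for Nos1. Of 18 genes of GABA receptors and synthesis, Gabrd, the extrasynaptic delta subunit, fell by 0.23 (adjusted p = 0.0353), a call lost without WT vehicle male 2 (adjusted p = 0.111), without HT fluoxetine male 3 (adjusted p = 0.0802), its lowest library, and with the length trend as a term. None of the 13 genes of the perineuronal net tested passed. Of 21 neurotrophin and plasticity genes 1 passed, Spry2, by -0.21, and did not without WT vehicle male 2 (adjusted p = 0.0775). Of 22 glucocorticoid and FOXO targets 1 passed, Zbtb16, by 0.54 (adjusted p = 0.0376). Zbtb16 did not pass without WT vehicle male 2 (adjusted p = 0.169), without HT fluoxetine male 3 (adjusted p = 0.0629) or with the length trend as a term. Of 24 genes of cholesterol synthesis 3 fell (12.5%, beside 3.54% of all genes), by 0.24 to 0.28, and none without WT vehicle male 2.

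By sex, 5 genes passed in females (0.03%) and 2607 in males (15.6%). The female calls were Ntsr1, Shank2, Hunk, Ccnd1 and Gm26793. Ntsr1 differed in females and males by 0.73 and 0.72, Ccnd1 by -0.93 and -1.10, and Hunk by -0.51 and -0.32. The ribosomal list had a median of -0.07 in females and -0.37 in males, and the respiratory list -0.07 and -0.33. Rpl13a differed by -0.26 in females (adjusted p = 0.594) and by -0.57 in males (adjusted p = 0.000107). Pik3r1, the regulatory subunit of PI3 kinase, differed by 0.02 and 0.37. The male count fell to 434 without WT vehicle male 2, to 1586 without HT fluoxetine male 3 and to 22 with the length trend as a term. The difference between the sexes passed for 0 genes with limma, with 2639 at an unadjusted p under 0.05, and for 419 genes without WT vehicle male 1.

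Whether the step from WT vehicle to HT fluoxetine departed from the sum of the genotype and the drug differences was tested as an interaction. It passed for 0 genes with limma (0.0%), with 1285 at an unadjusted p under 0.05. The same fit gave 127 genes (0.762%) for HT vehicle against WT vehicle, 140 (0.84%) for WT fluoxetine against WT vehicle and 55 (0.33%) for HT fluoxetine against HT vehicle. For Ndufs4 the interaction was -0.02, for Rpl41 0.05, for Hrk -0.13 and for Ccnd1 -0.18 (adjusted p of 0.98, 0.935, 0.79 and 0.695).

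Some of the largest changes belong to low or multicopy genes and are uncertain. Rpl14-ps1, a pseudogene, ran from 83.7 to 471 with a median of 226 in HT fluoxetine and from 0 to 362 with a median of 0 in WT vehicle, where most libraries were at 0. Fam205a2, of a multicopy family, ran from 85.1 to 301 with a median of 159 and from 0 to 317 with a median of 0 in the same order of groups. Gm4459, which lies within Cfap46, was above 0 in 1 of 10 HT fluoxetine libraries. Such values depend on how reads were divided among near-identical sequences. Adamts14, a procollagen peptidase gene, was low but measured in every library, at 21.8 to 60 with a median of 31.7 in HT fluoxetine and 13.1 to 31.1 with a median of 17.9 in WT vehicle. It differed by 0.79 ± 0.16 (adjusted p = 0.00188).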

How the data were processed

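Prefrontal cortex RNA was made into stranded, poly(A)-selected libraries, per the labels' protocols. What the authors deposited is a signal, never below zero, for each gene in each library: estimated counts after normalization. The tools used were DESeq2 1.19.11, R 3.6.0 and Salmon 0.11.2 with the genome GRCm38, per the submitters' processing notes. Annotation release, filters and whether counting used strand are not stated in the labels used here. Whole reads could not be recovered, so the read depth is unknown, and low genes are less certain than abundant ones. No column was left over and no libraries held identical values.

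The test was limma 3.58.1 (R 4.3.3) on log2(value + 1), moderated with trend and robust options, a scale that understates changes of low genes. Testing was limited to genes with a mean of at least 10, and the 12 groups of genotype, drug and sex (57 libraries) entered 1 fit. The contrast averages the difference in females and that in males. Benjamini-Hochberg adjustment covered every gene tested. GENCODE vM21 (GRCm38) gave coordinates, counted from 1, and transcript lengths, and RefSeq gave promoters. The same steps were run on simulated data, made by shuffling the libraries' deviations from their group means within each sex. Such shuffling unties single libraries from their groups, so it cannot speak to the dependence of the calls on them.

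The members and the 38 gene lists were chosen with earlier results of these data known, and no list was given a test of its own. The ribosomal and respiratory lists were corrected after the data were seen, to leave out kinases and paralogs. The rule for named genes takes the Shank genes, the 15 largest rises and falls, the 10 smallest p in each direction, up to 4 members of each list, genes within 1 Mb of Shank2, and up to 5 rises and falls of each comparison within or between the sexes and of the interaction. It selects 134 genes, of which some are left out of the text. Kcnip2 and the genes at the edge of the minimum mean fall outside it and were named after their values were seen. Alternatives changed the groups in the fit, the pseudocount, the minimum mean, the scaling, the moderation, the weights, the terms and the libraries.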

Additional observations from a re-analysis of the deposited data

Results flagged for a closer look

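A library stood apart from the rest of its group in 30 of the 176 pairs of gene and group examined, by the gap to its nearest neighbour relative to the range of the group (Dixon's criterion at 95%). Chance gives about 1 in 20 for independent pairs. These pairs share libraries, and most of the genes were chosen by their calls, so the share of flags cannot be set against that rate.

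WT vehicle male 2 was the high library for ribosomal, mitochondrial and small nuclear transcripts. It had the highest WT vehicle normalized count of Rpl13a (7665), Rpl17 (5633), Rps10 (3686), Ndufb2 (1849.9), Ndufs4 (2287), Atp5l (4399), Mrpl53 (636), Snrpg (643), Manf (2319.998) and Rpl14-ps1 (362). The same library was the lowest of its group for Shank1 (12057), Ahdc1 (1491), Foxk1 (1826), Shisa7 (4774), Grm5 (3342), Cacna1b (2897), Scn8a (8137) and Med13l (2328).

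HT fluoxetine male 3 was the highest of its group for Hrk (4479), Gria1 (17549), Cttn (4963), Adamts14 (60.01) and Gm4459 (76.6). It was the lowest for Shank1 (17814), Gabrd (973), the astrocyte gene Gpr37l1 (2751) and the microglia gene Gpr34 (100.3).

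WT vehicle female 1 was the lowest of its group for Shank3 (7394) and Neurod2 (1375) and the highest for the immediate early gene Nr4a1 (4907).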

How the results depend on the processing

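The count of 1083 genes moved to 62 with only the 4 groups compared, 583 with array weights and 193 with the length trend as a term, and to 427 and 247 in the alternatives chosen after seeing the data, without the 3 libraries least like the others and with length trend and striatal level as terms. With single libraries left out it ran from 463 (without WT vehicle male 2) to 1700 (without WT vehicle male 1). The share of higher genes was 45.5%, and 19.4% and 34.2% with only the 4 groups and with the length term. Within males the count of 2607 became 117, 355, 22, 94 and 23 in the same 5 fits, and 434 to 3347 with single libraries left out. Within females the count of 5 became 3 with only the 4 groups, 2 at a minimum mean of 50, 3 without trend or robust moderation, 12 and 10 in those 2 added fits, and 3 to 8 with single libraries left out. The difference between the sexes gave 1 gene without the 3 libraries and 0 to 419 with single libraries left out, and the interaction 0 to 1. The difference in length trend ran from 0.0547 to 0.105 when single libraries were left out, with some values past the threshold. Differences changed sign for Shank3 with the length term (0.00139) and, under quantile normalization, for mt-Cytb (0.00532) and mt-Nd4 (0.00088), genes that this scaling sets nearly equal by rank. The cause of these moves was not tested. Under the other settings the count of calls stayed within 1.5 times 1083. Replicate numbers recur across groups, but same-numbered libraries did not deviate together (mean correlation -0.05 over 8 pairs, 0 of them over 0.1). With the numbers as a replicate block 867 genes passed, and 3 within females. The library names of WT vehicle females carry other numbers than their titles. By library number, a check chosen after seeing the data, the mean correlation was -0.02, 1 of 8 pairs was over 0.1, and the replicate block gave 1084 genes, and 3 within females. The read depth is unknown, and changes of genes near the minimum mean are the least certain.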
